A study of Mus musculus with 8 samples.

Results

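The BCL2 family members followed here were chosen by gene symbol in the array annotation, and they are 10 of the 18193 genes measured: the survival genes *Bcl2*, *Bcl2l1*, *Bcl2l2* and *Mcl1*, the pore genes *Bak1* and *Bok*, and the BH3-only genes *Bcl2l11*, *Bid*, *Bad* and *Bmf*. All 10 were measured, by 35 of the 35877 annotated probe sets (a probe set is a group of short array probes that read one transcript). Each gene is given by its brightest probe set, judged by the mean of all 8 arrays, and its other probe sets follow where they differ.

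The samples were CD3+CD8+CD44+CD62L- T cells, the antigen-experienced phenotype, sorted from female C57BL/6 mice aged 6 to 8 weeks that carried subcutaneous MC38 tumors, a mouse colon carcinoma line. There were 4 groups of 2 arrays: tumor T cells of mice given 5 Gy of whole-body ionizing radiation (IR) 5 h before collection, tumor T cells of unirradiated mice, lymph node (LN) T cells of the irradiated mice and LN T cells of the unirradiated mice. Each array holds RNA pooled from 4 mice, tumor and LN samples of one treatment came from the same mice in 2 independent experiments, and draining and non-draining LN were pooled. Tumors were digested with enzymes and spun in Percoll whereas LN were only disrupted mechanically, so tissue and preparation cannot be told apart. All values are deposited log2 intensities, and every fold change is a difference on that log2 scale.

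The BCL2 family decides whether mitochondria release the factors that start cell death. Survival proteins such as BCL2, BCL-XL, BCL-W and MCL1 hold the pore formers BAX and BAK in check or bind the BH3-only proteins that trigger them. BH3-only proteins are switched on by separate signals, among them cytokine loss and DNA damage. In T cells, BIM, the product of *Bcl2l11*, is known for removing activated cells when survival cytokines run low, and BCL2 is its counterweight. Radiation is known to act on lymphocytes largely through p53, whose targets include the BH3-only genes *Bbc3* (PUMA) and *Pmaip1* (NOXA).

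*Bcl2l11* was the one member that passed the test in any comparison, and the sequence just before its 2 RefSeq transcription starts is shown because a FOXO motif was searched there, FOXO3 being a known activator of this gene. Both windows lie on the plus strand of GRCm38.p6 (RefSeq), at chr2:128125788-128126037 and chr2:128127325-128127574, and each holds the 250 bases before a start, in that order. Capitals mark the FOXO core motif GTAAACA, searched on both strands.
Bcl2l11 upstream start: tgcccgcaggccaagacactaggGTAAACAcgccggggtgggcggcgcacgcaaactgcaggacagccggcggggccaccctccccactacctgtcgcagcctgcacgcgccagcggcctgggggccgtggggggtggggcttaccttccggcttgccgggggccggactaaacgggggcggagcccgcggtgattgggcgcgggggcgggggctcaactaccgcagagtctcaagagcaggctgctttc
Bcl2l11 downstream start: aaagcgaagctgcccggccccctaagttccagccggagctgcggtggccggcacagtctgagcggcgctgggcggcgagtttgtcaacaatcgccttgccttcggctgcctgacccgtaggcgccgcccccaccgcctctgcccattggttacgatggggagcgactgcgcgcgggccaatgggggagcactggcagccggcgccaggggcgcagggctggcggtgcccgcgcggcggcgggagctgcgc
The motif occurred 1 time in the first window, on the plus strand, 227 bases before the start, and 0 times in the other. The windows were 72% and 73.2% G or C. Over all promoter windows of this length, 1040 of 32851 (3.17%) held the motif, and of the 16 windows of the 10 members 1 did. The p53 response element, in its single decamer form, was found in 2341 of all windows (7.13%) and in 1 of the members' 16, that of *Bmf*. A match is a description of these letters and shows no binding.

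A gene was called changed (rose or fell) when limma's moderated test, fitted across all arrays and adjusted by the Benjamini-Hochberg method over all annotated probe sets, put its adjusted p below 0.1 and its log2 fold change was 1 or more in either direction. With 2 arrays against 2, an exact permutation test of a single gene cannot go below p = 0.333, so the adjusted p-values rest on spread shared across genes. Correlation between the 2 arrays of a group was 0.966 to 0.993. The lower quartile of the arrays lay at 5.38 to 5.59, and 1 of the members' 35 probe sets, a minor one of *Bid*, averaged below it. T cell identity genes were measured at 13 of 15 listed, and none was called in any comparison, while their mean level was 11.11 to 11.27 in irradiated tumor, 11.42 to 11.46 in unirradiated tumor, 11.09 to 11.45 in irradiated LN and 11.64 to 11.69 in unirradiated LN arrays. Markers of other cells moved with tissue. Of 15 measured macrophage and monocyte genes, 12 rose in tumor over LN T cells with IR and 13 without, and their mean level was 9.09 to 10.53 in irradiated tumor, 10.36 to 11.17 in unirradiated tumor, 6.61 to 6.98 in irradiated LN and 6.35 to 6.82 in unirradiated LN arrays. Between irradiated and unirradiated tumor T cells 0 of the 15 passed, and 14 gave negative values (median log2 fold change -1.14). Of 12 fibroblast genes 9 and 8 rose (8.69 to 9.31 over the tumor arrays, 5.66 to 5.99 over the LN arrays). Of 9 B cell genes 3 and 2 fell, and of 7 epithelial genes 2 and 2 rose. All 7 epithelial genes gave positive values in tumor over LN with IR, whereas 4 gave negative values without IR (median log2 fold change -0.10). Over all genes 6.80% were called in tumor over LN with IR and 5.54% without. The part of these cells in the members' values was not tested. In these bulk samples, fewer cells that carry a transcript and less of it per cell cannot be told apart.

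In LN T cells, *Bcl2l11* rose after IR, the one call among the 10 members. Over all genes 1.05% were called in this comparison, and 0.786% rose. *Bcl2l11* stood at 12.27 and 12.77 in irradiated LN, against 11.26 and 11.22 in unirradiated LN T cells. The irradiated arrays lay above the unirradiated ones with no overlap (41.3% of all genes had none), and the 2 unirradiated arrays were close to each other. The log2 fold change was 1.28 (SE 0.20, 95% interval 0.81 to 1.75, adjusted p = 0.0550). In tumor T cells *Bcl2l11* stood at 12.23 and 12.28 with IR and at 12.29 and 12.01 without. These 4 values overlapped, and the log2 fold change of 0.10 (95% interval -0.37 to 0.58, adjusted p = 0.817) did not pass.

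The test of whether the IR effect on *Bcl2l11* differed between tissues gave a log2 difference, tumor minus LN, of -1.18 (SE 0.28, 95% interval -1.84 to -0.51). Its unadjusted p was 0.00405 and its adjusted p 0.758, so the difference did not pass. Over all genes 0 (0.00%) passed this test, and 1024 (5.63%) had an unadjusted p under 0.05. Among the members, *Bcl2l11* was the one of 10 with an unadjusted p under 0.05 here.

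**Figure D1:**
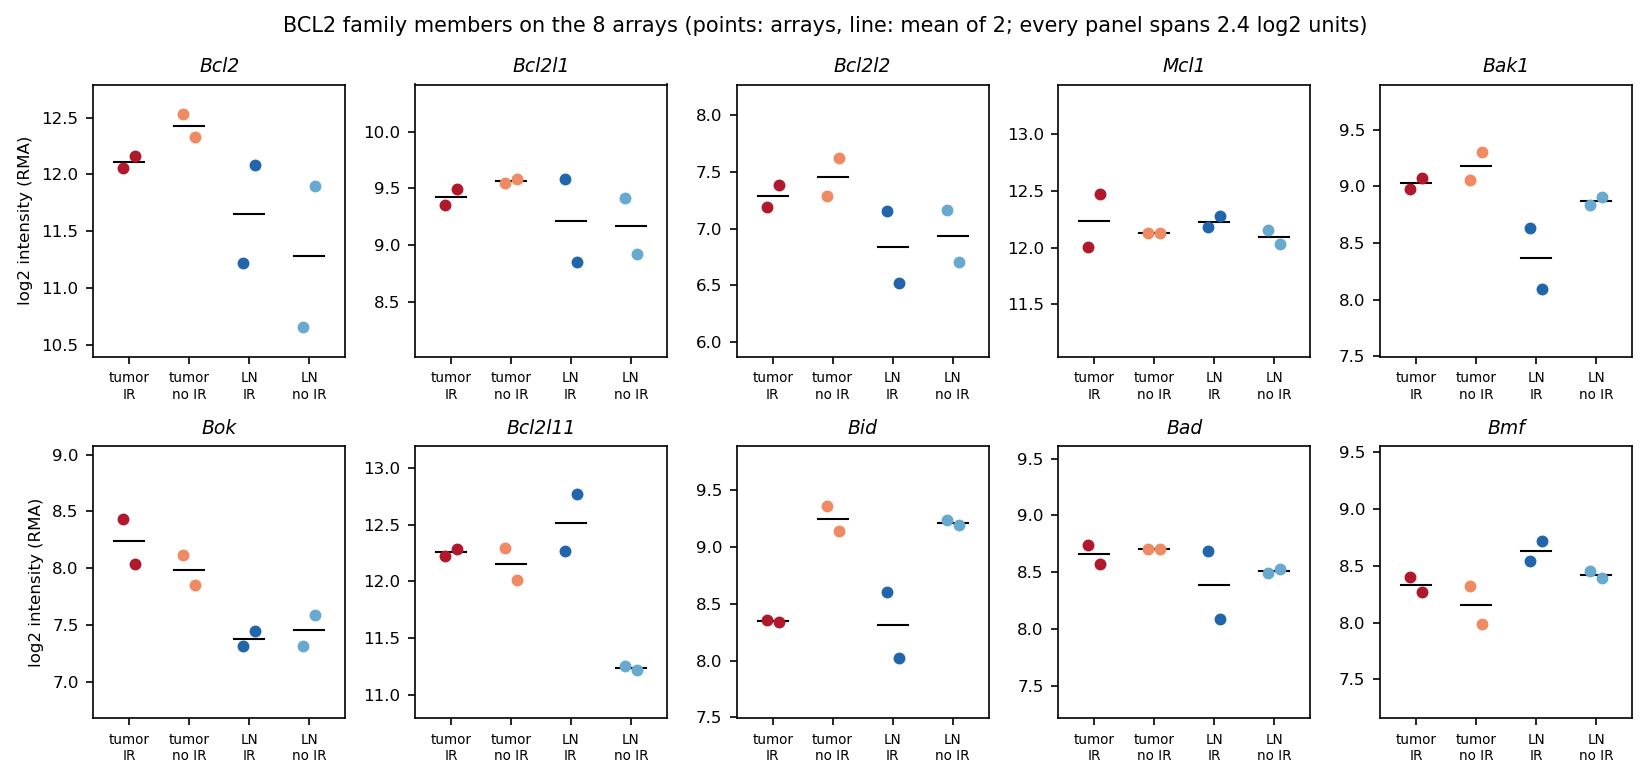
Log2 level of each of the 10 BCL2 family members on each of the 8 arrays, with groups along the horizontal axis and group means as lines. *Bcl2l11* is low in both unirradiated LN arrays (11.26 and 11.22) and lies between 12.01 and 12.77 in the other 6, and *Bid* is lower in the irradiated than in the unirradiated arrays of both tissues.

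Tumor T cells held a higher *Bcl2l11* signal than LN T cells before IR, but by less than the fold limit. The values were 12.29 and 12.01 in unirradiated tumor, against 11.26 and 11.22 in unirradiated LN T cells, a log2 fold change of 0.92 (SE 0.20, 95% interval 0.44 to 1.39, adjusted p = 0.0462). After IR the values were 12.23 and 12.28 in tumor, against 12.27 and 12.77 in LN T cells (log2 fold change -0.26, adjusted p = 0.492). The unirradiated LN arrays were thus the 2 low ones, and irradiated LN replicate 2 was the highest of the 8.

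*Bcl2l11* is read by 5 probe sets, which share its transcripts and are not replicates. After IR in LN T cells all 5 were called, with log2 fold changes of 1.28 to 1.81 and adjusted p-values of 0.0550 to 0.0787. In tumor T cells the 5 gave -0.34 to 0.38 after IR, and 0 were called. Tumor over LN without IR gave 0.92 to 1.22, and 3 of the 5 were called (adjusted p = 0.0359 to 0.0882 over the 5). Tumor over LN with IR gave -0.68 to -0.12, and 0 were called. The difference of the IR effects was -1.67 to -1.18, with unadjusted p-values of 0.00149 to 0.0103 and adjusted ones of 0.642 to 0.758.

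**Figure D2:**
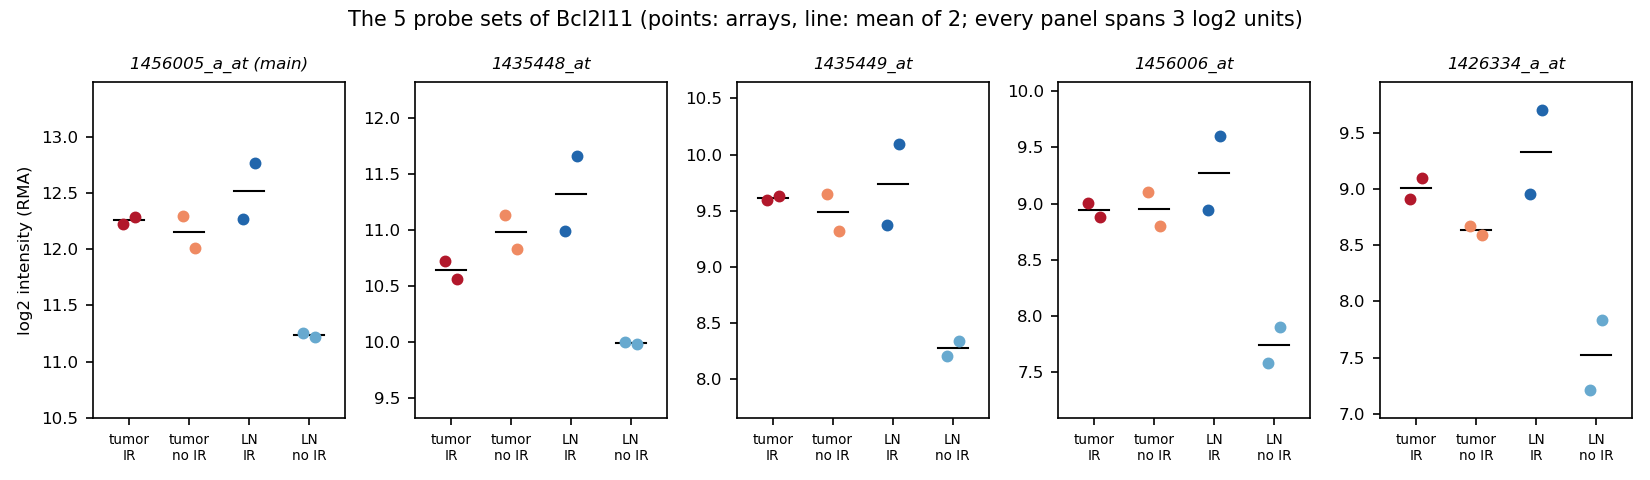
Log2 level of the 5 *Bcl2l11* probe sets on the 8 arrays, 1 panel a probe set, with group means as lines. In every panel the 2 unirradiated LN arrays are the lowest of the 8, and irradiated LN replicate 2 is the highest.

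The call in LN depended on the arrays that set the spread. Without irradiated LN replicate 1 the *Bcl2l11* log2 fold change was 1.53 (adjusted p = 0.00663), and without irradiated LN replicate 2 it was 1.03 (adjusted p = 0.0631). Without either unirradiated LN array the adjusted p was 0.169 or 0.222, and without any 1 of the 4 tumor arrays, which enter this comparison only through the shared spread, it was 0.146 to 0.163. The calls over all genes in this comparison moved too, and numbered 1789 without irradiated LN replicate 1, 259 without irradiated LN replicate 2 and 67 to 97 without any 1 of the other 6 arrays, against 191 on all arrays. Scaling the arrays to the T cell identity genes moved the median log2 fold change of all genes by 0.40 in this comparison, and *Bcl2l11* then stood at 1.68 (adjusted p = 0.0284).

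The genes whose main probe sets followed *Bcl2l11* most closely over the 8 arrays were *Cstad* (Pearson r = 0.98), *Tnks*, which encodes a tankyrase (0.94), and *Mapk9*, which encodes the kinase JNK2 (0.94). These are descriptions over 8 arrays that share 4 groups.

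*Bid*, whose product is cut by caspase 8 and carries the death receptor signal to mitochondria, was lower after IR in both tissues, and neither difference passed. It stood at 8.36 and 8.34 in irradiated tumor, against 9.36 and 9.14 in unirradiated tumor T cells (log2 fold change -0.90, 95% interval -1.39 to -0.41, adjusted p = 0.268). In LN it stood at 8.61 and 8.02 with IR, against 9.24 and 9.19 without (-0.90, 95% interval -1.39 to -0.41, adjusted p = 0.140). Within each tissue the irradiated and unirradiated arrays did not overlap, which held for 67.4% of all genes in tumor and 41.3% in LN. All 3 *Bid* probe sets gave negative values, of -0.90 to -0.71 in tumor and -0.90 to -0.42 in LN. The IR effects in the 2 tissues differed by -0.0003, tumor minus LN (95% interval -0.70 to 0.70). Without irradiated LN replicate 1 the LN value was -1.19 (adjusted p = 0.00896) and passed, a setting in which 1789 of all 18193 genes passed and 1340 of them fell, against 191 and 48 on all arrays. Leaving out irradiated LN replicate 2, the lower array at 8.02, made the LN value smaller in size. Scaling the arrays to the T cell identity genes moved the median log2 fold change of all genes after IR by 0.40 in LN and 0.25 in tumor. *Bid* then gave -0.50 in LN (adjusted p = 0.146) and -0.65 in tumor (adjusted p = 0.172). The level of *Bid* in tumor over LN T cells gave 0.03 both with and without IR (adjusted p = 0.947 and 0.953).

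*Bad*, whose product is kept inactive by phosphorylation downstream of growth factor kinases, and *Bmf*, which is held on the cytoskeleton by a dynein light chain, did not pass in any comparison. *Bad* ranged over 8.09 to 8.74 on the 8 arrays, with irradiated LN replicate 2 the lowest, and its log2 fold changes were -0.12 to 0.27. *Bmf* ranged over 7.99 to 8.72, and its log2 fold changes were -0.30 to 0.21. Both irradiated tumor arrays of *Bmf*, at 8.40 and 8.27, lay below both irradiated LN arrays, at 8.54 and 8.72 (50.1% of all genes had no overlap). In its other probe sets these arrays overlapped, at 6.83 and 7.31 against 7.38 and 7.04, and at 6.52 and 6.64 against 6.87 and 6.47. Its 3 probe sets did not share a sign in tumor over LN without IR (-0.27 to 0.57).

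Among the survival genes, *Bcl2*, which guards T cells that have lost cytokine support, showed the widest spread between replicates. It stood at 12.05 and 12.16 in irradiated tumor, 12.53 and 12.33 in unirradiated tumor, 11.22 and 12.09 in irradiated LN, and 10.66 and 11.90 in unirradiated LN T cells. In both LN groups replicate 1 was the low array, and the 4 tumor arrays were close together. B cell genes differed between the same LN arrays, with a mean level of 7.32 and 7.71 in replicates 1 and 2 of irradiated LN and 6.74 and 7.79 in those of unirradiated LN, and 6.41 to 6.60 in the tumor arrays. Their part in the *Bcl2* values was not tested. The *Bcl2* log2 fold change in tumor over LN without IR was 1.15 (SE 0.43, 95% interval 0.15 to 2.16, adjusted p = 0.218), which did not pass although the arrays did not overlap (56.5% of all genes did not). With IR it was 0.45 (95% interval -0.55 to 1.46, adjusted p = 0.587), and the IR effect was -0.32 in tumor (adjusted p = 0.722) and 0.37 in LN (adjusted p = 0.712). Without unirradiated LN replicate 2 the difference in tumor over LN without IR was 1.77, and without unirradiated LN replicate 1 it was 0.53. Robust regression, which down-weights arrays that stand apart, gave an adjusted p of 0.0699. With 2 arrays a group, such a fit makes p-values too small.

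The 5 *Bcl2* probe sets did not move as one. In tumor over LN without IR all 5 gave positive values (0.61 to 1.33), and 0 were called. With IR they gave -1.24 to 0.90, and for the fourth probe set in order of brightness the values were 8.76 and 8.52 in irradiated tumor, 10.23 and 10.12 in unirradiated tumor, 8.54 and 11.21 in irradiated LN, and 8.78 and 10.35 in unirradiated LN T cells. Its 2 irradiated LN arrays were the highest and the second lowest of the 8. After IR in tumor T cells the 5 gave -1.53 to -0.27, and 0 were called.

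**Figure D3:**
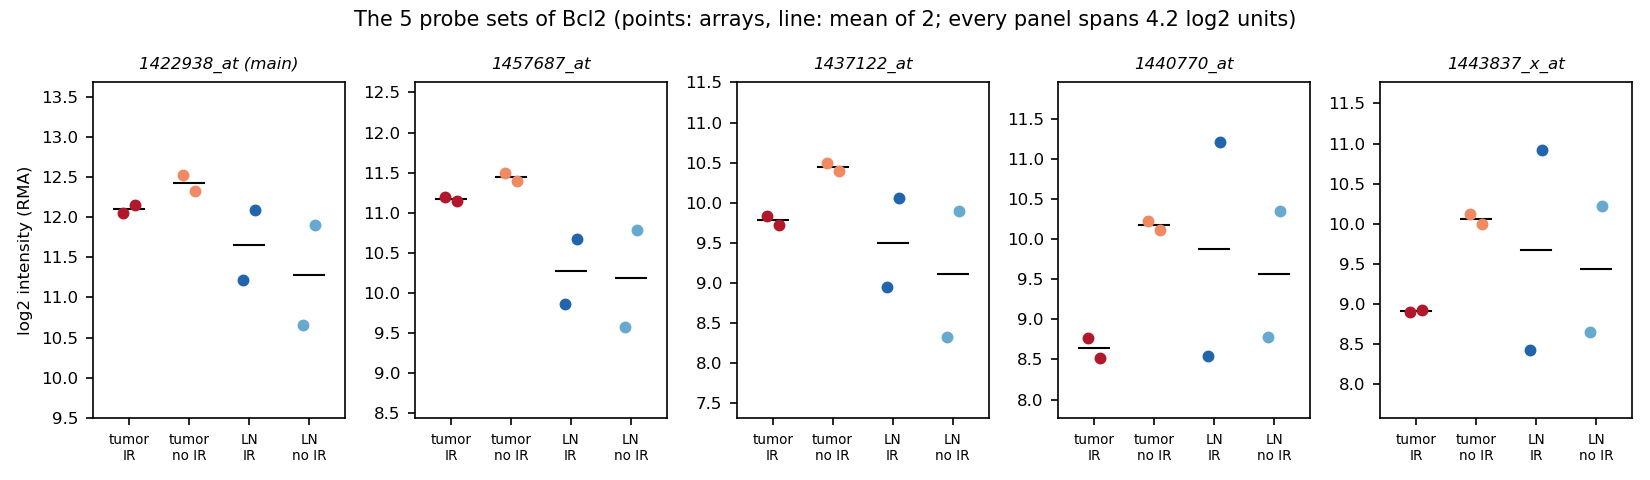
Log2 level of the 5 *Bcl2* probe sets on the 8 arrays, 1 panel a probe set, with group means as lines. In both LN groups replicate 1 lies below replicate 2 in every panel, and in the 2 dimmest probe sets the irradiated tumor arrays lie below the unirradiated ones by more than in the other 3.

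The change of *Bcl2* against *Bcl2l11* was set out array by array, as the log2 difference of the 2 genes relative to its mean in unirradiated LN. It was -0.22 and -0.17 in irradiated tumor, 0.20 and 0.28 in unirradiated tumor, -1.09 and -0.72 in irradiated LN, and -0.64 and 0.64 in unirradiated LN T cells. Both irradiated LN arrays lay below the 2 unirradiated LN arrays, and the unirradiated LN arrays spanned all 4 tumor values. This is a description with no test.

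*Mcl1*, a short-lived survival protein that T cells need throughout life, had the smallest range over the 8 arrays of the 10 members (0.46). It stood at 12.01 and 12.47 in irradiated tumor, 12.13 and 12.13 in unirradiated tumor, 12.18 and 12.28 in irradiated LN, and 12.15 and 12.03 in unirradiated LN T cells. Its log2 fold change was 0.01 in tumor over LN with IR (95% interval -0.42 to 0.44), 0.04 without IR (-0.39 to 0.47), 0.14 after IR in LN (-0.29 to 0.56) and 0.11 after IR in tumor (-0.32 to 0.54). All 6 of its probe sets gave values between -0.37 and 0.20 in these 4 comparisons, and 0 were called.

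*Bcl2l1*, which encodes BCL-XL, and *Bcl2l2*, which encodes BCL-W, did not pass in any comparison. *Bcl2l1* stood at 9.35 and 9.49 in irradiated tumor and 9.55 and 9.58 in unirradiated tumor T cells, against 9.58 and 8.85 in irradiated LN and 9.41 and 8.92 in unirradiated LN T cells. *Bcl2l2* stood at 7.19 and 7.38 in irradiated tumor and 7.29 and 7.62 in unirradiated tumor T cells, against 7.16 and 6.52 in irradiated LN and 7.16 and 6.70 in unirradiated LN T cells. In the main probe sets of both genes LN replicate 2 was the lower array of its group, the reverse of *Bcl2*. Not all their probe sets shared this order. Unirradiated LN replicates 1 and 2 stood at 8.91 and 9.04, and at 8.18 and 8.23, in minor *Bcl2l1* probe sets. Irradiated LN replicates stood at 6.85 and 6.88 in a minor *Bcl2l2* one. Tumor over LN without IR gave 0.40 for *Bcl2l1* (adjusted p = 0.519) and 0.52 for *Bcl2l2* (adjusted p = 0.379).

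Of the pore genes, *Bok*, a pore former that acts largely apart from the survival proteins, was at 8.44 and 8.03 in irradiated tumor, 8.12 and 7.86 in unirradiated tumor, 7.32 and 7.44 in irradiated LN, and 7.32 and 7.59 in unirradiated LN T cells. All 4 tumor arrays lay above all 4 LN arrays. Tumor over LN gave 0.86 with IR (SE 0.20, 95% interval 0.39 to 1.32, adjusted p = 0.0442) and 0.54 without (95% interval 0.07 to 1.00, adjusted p = 0.215), both under the fold limit. The fibroblast genes, whose mean was 9.30 to 9.31 in irradiated tumor, 8.69 to 8.89 in unirradiated tumor, 5.73 to 5.81 in irradiated LN and 5.66 to 5.99 in unirradiated LN arrays, were also higher in all 4 tumor arrays. The 3 genes nearest to it over the 8 arrays, looked at after its values were seen, were *Msln* (mesothelin, r = 0.99), *Apod* (apolipoprotein D, 0.98) and *Tmem47* (0.98). The part of the cells that carry these genes in the *Bok* signal was not tested.

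*Bak1*, the pore former BAK that sits on the outer mitochondrial membrane, was at 8.98 and 9.08 in irradiated tumor and 9.05 and 9.30 in unirradiated tumor T cells. In LN it was at 8.63 and 8.10 with IR and 8.84 and 8.91 without. Tumor over LN with IR gave 0.66 (95% interval 0.18 to 1.14, adjusted p = 0.0999), under the fold limit. The other log2 fold changes were 0.30 without IR, -0.51 after IR in LN and -0.15 after IR in tumor, with adjusted p-values of 0.321 to 0.733. In the other *Bak1* probe set the irradiated arrays overlapped, at 8.38 and 8.41 in tumor and 8.46 and 7.30 in LN. That probe set gave 0.51 in tumor over LN with IR (adjusted p = 0.438) and -0.61 after IR in tumor (adjusted p = 0.428).

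**Figure D4:**
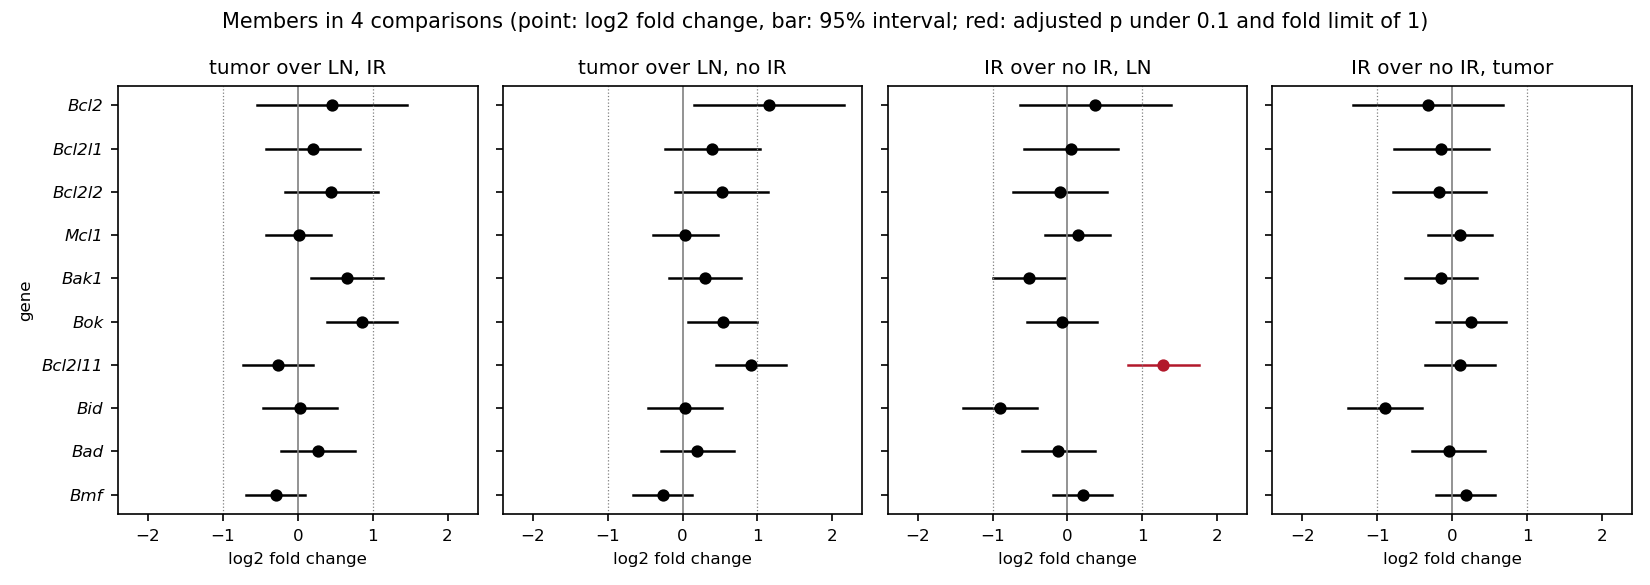
Log2 fold change of each of the 10 members in the 4 comparisons, with 95% intervals from the moderated fit and dotted lines at the fold limit of 1 in size. The *Bcl2l11* point for IR in LN (1.28) is the one that passed, and the intervals of *Bcl2* are the widest.

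Counted together, 0 of the 10 members passed in tumor over LN with IR, where 6.80% of all genes did, 0 of 10 in tumor over LN without IR, where 5.54% did, and 0 of 10 after IR in tumor, where 0.0989% did. The counts of members with an unadjusted p under 0.05 in these 3 comparisons were 2 (21.7% of all genes), 3 (17.7%) and 1 (16.6%), and for IR in LN 3 (14.3%). Members whose arrays did not overlap between groups numbered 4 in tumor over LN with IR (50.1% of all genes), 8 without IR (56.5%), 5 for IR in LN (41.3%) and 3 for IR in tumor (67.4%). In tumor over LN without IR, 7 of the 10 members lay higher in tumor with no overlap, against 21.3% of all genes. *Bmf* lay lower. Some members moved together over the 8 arrays (*Bcl2l1* and *Bcl2l2* r = 0.92, *Bak1* and *Bad* r = 0.82). These counts used main probe sets only. Without IR, minor probe sets of *Bcl2* and *Bad* overlapped between tumor and LN, and a minor *Bmf* probe set lay higher in tumor. The median log2 fold change of the 10 members was 0.35 there, against -0.09 over all genes. It was 0.24 with IR (all genes 0.06), -0.01 for IR in LN (all genes 0.01) and -0.10 for IR in tumor (all genes 0.09).

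Other family genes were taken from a list of 17, of which 11 were measured, and *Bax* was not analysed here. After IR in LN T cells 2 of the 11 rose and 0 fell, where 0.786% of all genes rose. *Pmaip1*, which encodes NOXA and binds MCL1, stood at 10.31 and 10.08 in irradiated LN, against 8.23 and 7.56 in unirradiated LN T cells (log2 fold change 2.30, adjusted p = 0.0118). *Bbc3*, which encodes PUMA and binds every survival protein of the family, stood at 9.53 and 9.64 in irradiated LN, against 7.74 and 8.57 in unirradiated LN T cells (1.43, adjusted p = 0.0817). In both genes the irradiated LN arrays lay above the unirradiated ones, and 41.3% of all genes had no overlap in this comparison. *Pmaip1* was called without each of the 8 arrays in turn, whereas the *Bbc3* call held without irradiated LN replicate 1 or unirradiated LN replicate 2 and was lost without each of the other 6 (adjusted p up to 0.224).

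After IR in tumor T cells 0 of the 11 passed, where 0.0989% of all genes did. *Pmaip1* stood at 10.75 and 10.97 in irradiated tumor, against 9.20 and 9.24 in unirradiated tumor T cells (log2 fold change 1.64, adjusted p = 0.131). *Bbc3* stood at 8.97 and 9.13 in irradiated tumor, against 7.55 and 7.49 in unirradiated tumor T cells (1.53, adjusted p = 0.211). The 2 arrays of each group were close, and the groups did not overlap, which held for 67.4% of all genes. Both log2 fold changes were over the limit in size while their adjusted p-values missed it. Both genes passed with robust regression and with array weights, where 177 and 200 of all genes were called, against 18 by least squares. The difference of the IR effects between tissues was -0.67 for *Pmaip1* and 0.10 for *Bbc3* (adjusted p = 0.782 and 0.958).

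In tumor over LN, *Pmaip1* rose without IR (log2 fold change 1.33, adjusted p = 0.0205), and with IR it gave 0.66 (adjusted p = 0.139). The call without IR was lost without either unirradiated tumor array or unirradiated LN replicate 2 (adjusted p up to 0.154). *Bnip3*, a mitochondrial protein that hypoxia raises, rose in tumor over LN T cells both with IR (3.78, adjusted p = 0.000448) and without (3.57, adjusted p = 0.000625). It stood at 11.21 and 11.78 in irradiated tumor and 11.39 and 11.77 in unirradiated tumor T cells, against 7.95 and 7.48 in irradiated LN and 7.98 and 8.05 in unirradiated LN T cells.

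Of 13 genes that act after the pore, 11 were measured, and 1 rose in LN T cells after IR, where 0.786% of all genes rose. *Apaf1*, whose product forms the apoptosome with cytochrome c, stood at 11.30 and 11.51 in irradiated LN, against 9.52 and 9.14 in unirradiated LN T cells (log2 fold change 2.08, adjusted p = 0.00658), and the call held without each of the 8 arrays. In tumor it stood at 10.45 and 10.27 with IR, against 9.51 and 9.58 without (0.81, adjusted p = 0.264). *Apaf1* fell in tumor over LN with IR (-1.05, adjusted p = 0.0168), and that call was lost without irradiated tumor replicate 2 or irradiated LN replicate 2. The difference of the IR effects was -1.27 (adjusted p = 0.642), and it passed without irradiated LN replicate 1 (adjusted p = 0.0587), where 770 of all genes passed this test, against 0 on all arrays.

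Of 18 regulators and binding partners, 17 were measured. *Foxo3*, the transcription factor named above for *Bcl2l11*, stood at 11.13 and 11.22 in irradiated LN, against 9.36 and 10.14 in unirradiated LN T cells, and rose after IR (log2 fold change 1.43, adjusted p = 0.0746). In tumor it stood at 10.14 and 10.10 with IR, against 9.79 and 9.98 without (0.23, adjusted p = 0.653), and in tumor over LN with IR it fell (-1.06, adjusted p = 0.0473). The LN call held without irradiated LN replicate 1 or unirradiated LN replicate 2 and was lost without each of the other 6 arrays (adjusted p up to 0.207), and the tumor over LN call was lost without either irradiated tumor array or irradiated LN replicate 2 (up to 0.248). The difference of the IR effects was -1.19 (adjusted p = 0.758). *Foxo1*, a second factor of that family that keeps *Il7r* expressed in resting T cells, fell in tumor over LN both with IR (-1.55, adjusted p = 0.0133) and without (-1.52, adjusted p = 0.0149). Without replicate 1 of the tumor group in question these adjusted p-values were 0.104 and 0.105. *Pim2*, a kinase that phosphorylates BAD, fell in tumor over LN with IR (-1.12, adjusted p = 0.0148), a call lost without irradiated tumor replicate 1 (adjusted p = 0.111). Without IR it gave -0.80 (adjusted p = 0.0556), under the fold limit, and it passed without unirradiated LN replicate 1 (-1.03, adjusted p = 0.0382).

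Of 7 survival cytokine receptors 6 were measured, and 1 fell in tumor over LN T cells, both with and without IR. Over all genes 6.80% were called in tumor over LN with IR and 5.54% without. *Il7r*, the interleukin-7 receptor chain that sustains *Bcl2* in T cells, stood at 10.97 and 11.13 in irradiated tumor and 10.85 and 11.29 in unirradiated tumor T cells, against 12.57 and 13.02 in irradiated LN and 12.38 and 12.69 in unirradiated LN T cells. The log2 fold change was -1.75 with IR (adjusted p = 0.00634) and -1.47 without (adjusted p = 0.0135), and both calls held without each of the 8 arrays.

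**Figure D5:**
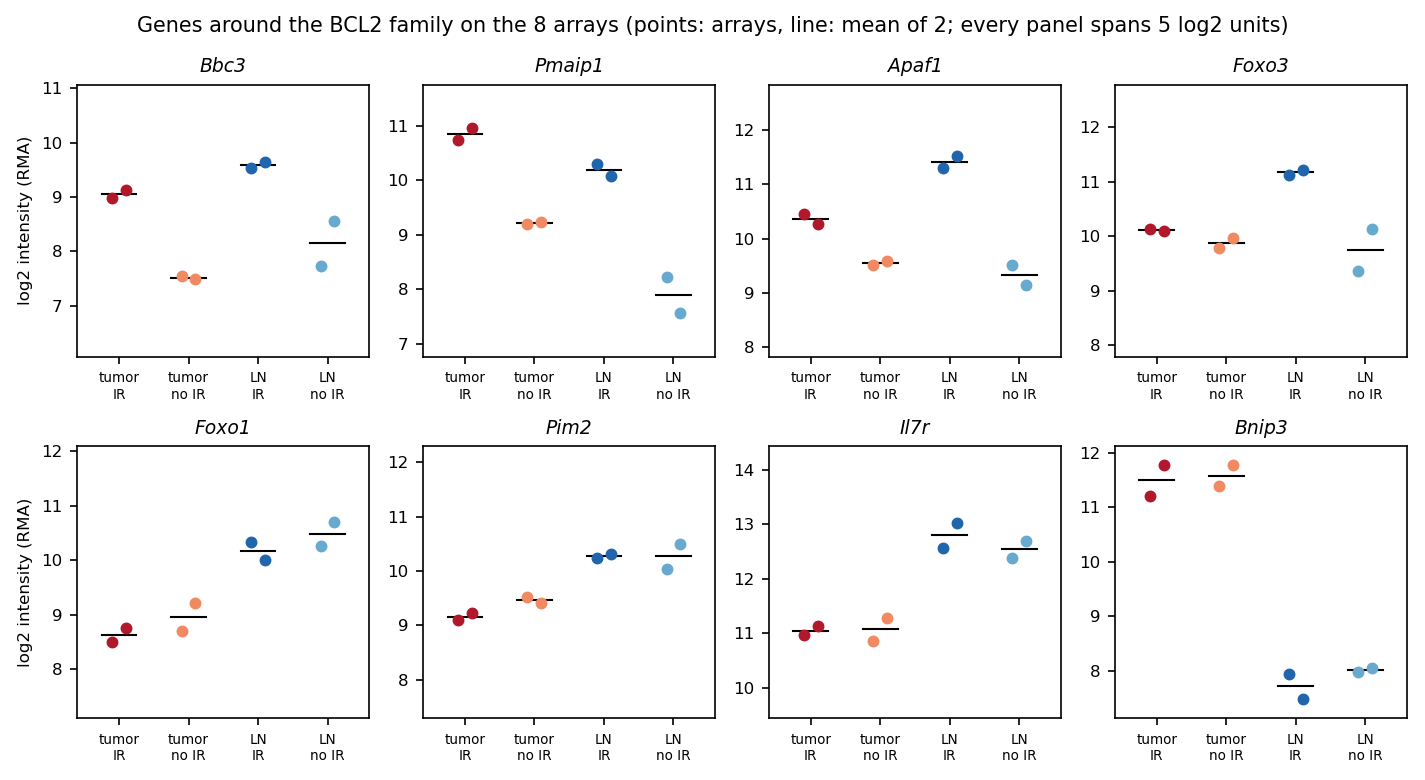
Log2 level of 8 genes of the wider pathway (*Bbc3*, *Pmaip1*, *Apaf1*, *Foxo3*, *Foxo1*, *Pim2*, *Il7r* and *Bnip3*) on the 8 arrays, with group means as lines. *Bbc3* and *Pmaip1* are above their unirradiated arrays after IR in both tissues, *Foxo3* and *Apaf1* are highest in the 2 irradiated LN arrays, and *Il7r* and *Foxo1* are lower in all 4 tumor arrays than in all 4 LN arrays.

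The check on the treatment used 12 known p53 target genes. After IR in LN T cells 10 rose and 0 fell (median log2 fold change 1.85), the largest being *Phlda3* (4.12), *Cdkn1a* (3.84), *Sesn2* (3.02) and *Zmat3* (2.44). In tumor T cells 5 rose and 0 fell (median 1.49), led by *Phlda3* (2.29), *Zmat3* (1.59), *Ccng1* (1.49) and *Sesn2* (1.49). Over all genes 0.786% rose after IR in LN, and 0.0989% were called after IR in tumor. In tumor over LN with IR *Sesn2* (-1.47), *Trp53inp1* (-1.15) and *Zmat3* (-1.10) fell and *Perp* rose (1.58). Without IR *Cdkn1a* (2.12), *Perp* (2.05) and *Phlda3* (1.16) rose and *Trp53inp1* fell (-1.58).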

How the data were processed

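Gene expression was measured on 8 whole-genome Affymetrix mouse arrays, 1 for each of 8 pooled samples. The authors normalised the arrays with RMA (no version was stated) and deposited a table of log2 values for 45101 probe sets, which was used as deposited, with no added logarithm and no filter. Array annotation named 1 gene for 34945 probe sets, several for 932 and none for 9160, and 64 were controls. Fits and adjustments used the 35877 that are annotated. The brightest probe set naming a gene alone stood for that gene, for 18193 genes.

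In limma 3.58.1 (R 4.3.3) the 4 groups were fitted by least squares with empirical Bayes moderation (residual degrees of freedom 4, prior 3.13) and Benjamini-Hochberg adjustment. The thresholds, a log2 fold change of 1 or more in either direction with adjusted p below 0.1, follow the paper's methods, which used a robust fit intersected with SAM. The robust fit was an alternative here and SAM was not run. Contrasts compared tumor with LN in each treatment, irradiated with unirradiated cells of each tissue, and the 2 IR effects with each other. The fit was tested on simulated data. SDs and p-values measure the spread between 2 pools a group, and the number of arrays limits the precision.

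All 10 members are described, and genes of other lists are named when they passed, up to 4 per list and comparison, with *Bbc3* and *Pmaip1* always. The members and lists were chosen with earlier results of these data known. Promoter windows come from RefSeq for GRCm38.p6, matched for 10 of the 10 members by Entrez ID. The alternatives were 13 settings of the fit, thresholds, probe sets and scaling, and leaving out each of the 8 arrays.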

Additional observations from a re-analysis of the deposited data

How the results depend on the processing

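The counts of changed members were 0, 0, 1, 0 and 0 for tumor over LN with IR, tumor over LN without IR, IR in LN, IR in tumor and the difference of the IR effects, and 85 of 104 recomputed counts stayed at these values. The count for tumor over LN without IR was 1 with robust regression and with array weights (*Bcl2*, adjusted p = 0.0699 and 0.0751), and 1 (*Bcl2l11*) with no fold limit, with the mean of a gene's probe sets, with any probe set counted and with arrays scaled to T cell identity genes. With no fold limit it was 2 for tumor over LN with IR (*Bak1* and *Bok*). The count for IR in LN was 0 with array weights, with only the 4 arrays compared (*Bcl2l11* adjusted p = 0.555) and with adjusted p under 0.05. Leaving out 1 array gave 0 to 0 calls for tumor over LN with IR, 0 to 1 for tumor over LN without IR, 0 to 2 for IR in LN, 0 to 0 for IR in tumor and 0 to 1 for the difference of the IR effects. Without irradiated LN replicate 1, which gave the 2 calls for IR in LN and the 1 (*Bcl2l11*) for the difference, 1789 and 770 of all 18193 genes passed, against 191 and 0 on all arrays. Without unirradiated LN replicate 2, which gave the call of *Bcl2* in tumor over LN without IR, 762 passed, against 1008. The cause of these shifts was not tested. With array weights, all genes called for IR in LN numbered 69, and with robust regression 504, against 191 by least squares. For IR in tumor they numbered 200 and 177, against 18. With only the 4 arrays compared, 0 genes were called for IR in LN and 173 for IR in tumor. The SD of the difference between the 2 arrays was 0.57 in irradiated LN, 0.42 in unirradiated LN and 0.27 in each tumor group. All groups shared 1 estimate of spread, so counts of calls do not compare the IR effects of the 2 tissues.

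Replicate numbers were not stated to mark the 2 experiments. The deviations of same-numbered arrays correlated at 0.43 within tumor and 0.43 within LN but at -0.14 to 0.07 between the tissues. Same-numbered arrays of 1 tissue thus shared part of their deviations, and the main fit left this pairing out. The replicate block was 1 term for both tissues, and a separate term for each tissue was not fitted. With replicate number as a replicate block the count for IR in LN stayed at 1 (*Bcl2l11* 1.28, adjusted p = 0.0876), and the other 4 counts stayed at 0. For single members 775 of the recomputed values kept their call or their lack of one, 8 lost a call and 7 gained one. None reversed a called direction. All 8 losses were of the 1 call on all arrays, *Bcl2l11* after IR in LN, which held in 8 of its 16 settings. Leaving out dim probe sets removed *Bcl2l2*. Minor probe sets of *Bid*, *Bcl2l1* and *Bcl2l2* lay close to or below the lower quartile on some arrays, which limits them, and 2 arrays a group limit every interval.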
